A study of Mus musculus with 21 samples.

Results

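The general machinery that writes and erases methylation of lysine 4 on histone H3 (H3K4) was examined through 8 genes, Setd1a, Setd1b, Wdr5, Ash2l, Rbbp5, Men1, Kdm5a and Kdm5b. These genes were picked by name as H3K4 writers and erasers that act apart from Prdm9, the meiotic methyltransferase that marks recombination hotspots, and all 8 were found among the 37620 genes of the expression table. The measurements were RNA-seq values from germ cells enriched from testes of C57BL/6J (B6) mice at 12 days post-partum (dpp), when the first wave of meiosis is under way. Cells were released by collagenase and trypsin digestion, the labels call them spermatocytes, and no treatment or other genotype was included. There were 12 libraries, with 3 libraries for each of the sample numbers 186wt, 343wt, 444wt and 456wt. Of the 21 samples in the study, the other 9, which hold Affinity-seq, ChIP-seq and input DNA, were not analysed here.

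Trimethylation of H3K4 marks the promoters of active genes in most cells, and in meiotic germ cells it also marks hotspots. The general writers are large complexes in which a SET domain enzyme works with a shared core of WDR5, RBBP5, ASH2L and DPY30. The erasers of the KDM5 family remove trimethyl and dimethyl groups from the same residue, so that the level of the mark reflects both activities.

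Expression is given as FPKM, which scales the fragments of a gene to its transcript length and to the size of the library, so levels of different genes can be set side by side per length. Each sample value is the average of its 3 libraries, and means ± SD are over the 4 samples. The study's methods describe 4 RNA preparations, and the labels give 4 sample numbers with 3 libraries each. The 3 libraries of a number were therefore read as sharing 1 preparation, and p-values set the differences between these 4 samples against a technical spread between libraries. Estimated depth was 13100000 to 18200000 fragments per library. Genes of early meiosis and of spermatogonia were detected in all 4 samples, while the Sertoli cell list had the highest sums, 2331 to 4169 FPKM over 8 genes found of 9, so the enriched cells held somatic RNA as well. Those sums were led by Clu (mean 1844 FPKM), Aard (580.4) and Cst12 (546.8). Sox9, Wt1, Gata4, Amh and Fshr averaged 9.25 to 105.6 FPKM, so the ranking of the sums does not give the amount of Sertoli RNA. In such bulk samples, fewer cells of a type and less RNA per cell cannot be told apart.

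The genes lie on 7 chromosomes. In NCBI build 37 (mm9, GENCODE M1), all 8 are protein-coding. On the plus strand are Setd1a at chr7:134920184-134943636, Setd1b at chr5:123592202-123617444, Wdr5 at chr2:27370677-27392055, Rbbp5 at chr1:134373944-134402242, Men1 at chr19:6334979-6340891, Kdm5a at chr6:120314117-120394592 and Kdm5b at chr1:136456748-136529454. Ash2l, at chr8:26926663-26958166, is on the minus strand. Promoter sequences from RefSeq (GRCm38.p6) were matched for 5 of the 8. Setd1b, Ash2l and Kdm5a had no entry. The 250 bases before the start are shown for 1 gene of each role, a SET1 methyltransferase, a core subunit, menin (the first of 3 starts) and a demethylase, with the GC box GGGCGG and the CCAAT box in capitals on either strand.
Setd1a (chr7:127777139-127777388, + strand): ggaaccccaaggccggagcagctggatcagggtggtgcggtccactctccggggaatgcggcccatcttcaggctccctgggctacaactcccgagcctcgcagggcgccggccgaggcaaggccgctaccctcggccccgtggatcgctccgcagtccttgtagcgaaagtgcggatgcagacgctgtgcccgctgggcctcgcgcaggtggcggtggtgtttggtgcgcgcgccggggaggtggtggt
Wdr5 (chr2:27514897-27515146, + strand): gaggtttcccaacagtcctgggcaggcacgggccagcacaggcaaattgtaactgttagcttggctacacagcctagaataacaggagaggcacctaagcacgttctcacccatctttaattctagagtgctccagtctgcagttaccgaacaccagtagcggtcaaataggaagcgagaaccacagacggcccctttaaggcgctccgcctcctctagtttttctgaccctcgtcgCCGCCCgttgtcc
Men1 (chr19:6334729-6334978, + strand): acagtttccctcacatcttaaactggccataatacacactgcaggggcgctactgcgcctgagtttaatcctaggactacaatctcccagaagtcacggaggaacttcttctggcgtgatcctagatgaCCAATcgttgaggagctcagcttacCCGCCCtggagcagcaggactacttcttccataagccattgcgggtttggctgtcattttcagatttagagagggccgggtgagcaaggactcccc
Kdm5b (chr1:134559928-134560177, + strand): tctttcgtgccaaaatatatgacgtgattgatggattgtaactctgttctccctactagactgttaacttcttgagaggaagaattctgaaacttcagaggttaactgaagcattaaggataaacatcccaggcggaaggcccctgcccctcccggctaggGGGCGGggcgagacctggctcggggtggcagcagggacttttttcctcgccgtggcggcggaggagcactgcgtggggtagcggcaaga
The GC box occurred in the windows of Wdr5, Men1 and Kdm5b, and in 32.7% of all 32851 promoters. A CCAAT box stood in the Men1 window alone among the 4, against 33.9% of all promoters. The Setd1a window held neither, but had 25 CG dinucleotides, more than 89.3% of all promoters, where the median promoter had 6. None of the windows of the 5 matched genes held a TATA box (TATAAA, in 12.4% of all promoters). The E-box CACGTG, in 6.02% of all promoters, was not in them either. The cyclic AMP response element TGACGTCA, in 1.55% of all promoters, was likewise not found. These matches describe letters in the window and not binding.

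Levels of the 8 genes spanned more than an order of magnitude and kept nearly the same order in every sample. Kdm5b had the highest level, with a mean of 85.7 ± 3.26 FPKM (SD, n = 4), and Setd1b the lowest, with 6.80 ± 0.955 FPKM. Between them stood Wdr5 at 73.1 ± 10.1, Kdm5a at 62.6 ± 7.72, Ash2l at 61.3 ± 4.05, Setd1a at 57.4 ± 7.27, Men1 at 33.3 ± 3.77 and Rbbp5 at 17.1 ± 0.826 FPKM. In 6 of the 8 the mean lay in the upper quartile of the 20795 genes tested (21.1 FPKM or more). Rbbp5 and Setd1b were the exceptions, above 70.7% and 54.1% of tested genes. Of the 7 pairs of neighbours in this order, 5 kept their order in all 12 libraries. Kdm5a was above Ash2l in 8 of 12 libraries and Ash2l above Setd1a in 7 of 12, so the order of these 3 genes did not exceed the spread between samples.

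**Figure D1:**
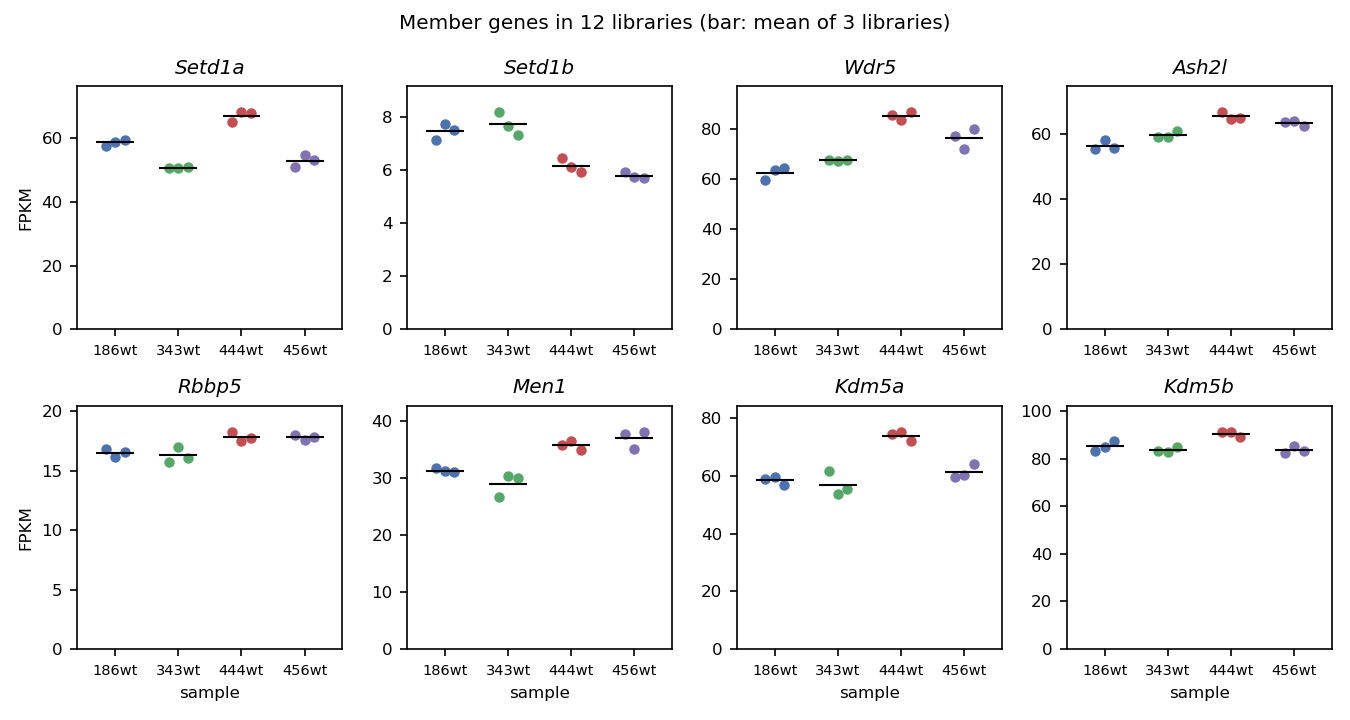
FPKM (linear axis from 0) of each of the 8 genes in the 12 libraries, by sample number, where points are libraries and bars are means of 3. Sample 444wt has the highest mean for 6 of the genes, 456wt for Men1 and 343wt for Setd1b.

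All 8 genes differed between the 4 samples by limma's F-test on log2(FPKM + 0.1), with an adjusted p below the threshold of 0.05. This must be read against the background, since 58.2% of the 20795 tested genes differed by the same test. That share, like those given below for single samples, covers genes down to 0.1 FPKM. Shares among genes at levels like those of the 8 were not counted. The differences were small: from the lowest to the highest sample the 8 genes moved by a median of 0.37 on the log2 scale, against 0.55 for all tested genes and 0.35 for the 9682 genes with means of 5 to 100 FPKM.

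Setd1a encodes a catalytic subunit of the SET1 complexes, which deposit much of the trimethyl mark at promoters. Its level was 58.7 FPKM in 186wt, 50.8 in 343wt, 67.1 in 444wt and 53.0 in 456wt. The ranges of the 3 libraries did not overlap in any of the 6 pairs of samples. The share of all genes without such overlap was not counted, so overlap here and below only describes the values. Sample 444wt was 24.0% above the mean of the other 3 (0.31 ± 0.023 on the log2 scale, SE, adjusted p = 6.12e-07), and samples 343wt (-0.22, adjusted p = 1.14e-05) and 456wt (-0.14, adjusted p = 0.000387) were below it. The value in 186wt missed the threshold (0.06, adjusted p = 0.0788), though it passed under 3 other settings and without 456wt replicate 2 (adjusted p = 0.0387). This gene carries a limit of annotation: its exons share 51.9% of their bases with Hsd3b7, a bile acid enzyme gene on the same strand. In its longest transcript, 55.2% of the 100-base windows had their first or last 50 bases in Hsd3b7 too. Hsd3b7 was listed at 6.90, 8.28, 5.87 and 7.72 FPKM in 186wt, 343wt, 444wt and 456wt, highest where Setd1a was lowest and lowest where it was highest. Whether reads were divided differently between the genes was not tested.

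Its paralog Setd1b, the other SET1 catalytic subunit, had a lower level and was called in the opposite direction to Setd1a in 343wt and 444wt, but in the same direction in 456wt. It was at 7.49 FPKM in 186wt, 7.74 in 343wt, 6.18 in 444wt and 5.80 in 456wt. All libraries of 186wt and 343wt (7.16 to 8.20) lay above all libraries of 444wt and 456wt (5.72 to 6.48). Both of the first pair were called higher than the mean of the others, 186wt by 0.20 (adjusted p = 0.00771) and 343wt by 0.26 (adjusted p = 0.00121), while 444wt (-0.17, adjusted p = 0.0144) and 456wt (-0.29, adjusted p = 0.000669) were lower. The call in 444wt was lost without 444wt replicate 2 (adjusted p = 0.0526) or 444wt replicate 3 (adjusted p = 0.0757). The ratio of Setd1a to Setd1b was 7.84 in 186wt, 6.56 in 343wt, 10.9 in 444wt and 9.13 in 456wt, a mean of 8.60 ± 1.84 (SD, n = 4). Over single libraries this ratio ran from 6.19 to 11.4, with an average SD of 0.454 among the 3 libraries of a sample, so the samples were spread more widely than their libraries.

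Of the shared core subunits, Wdr5, the WD40 scaffold that binds the catalytic enzymes, differed most. Its level was 62.6 FPKM in 186wt, 67.6 in 343wt, 85.5 in 444wt and 76.5 in 456wt, and no 2 samples had overlapping libraries. Relative to the mean of the others, 444wt was higher by 0.32 (adjusted p = 8.65e-06) and 186wt lower (-0.28, adjusted p = 2.92e-05). Smaller differences were called in 343wt (-0.13, adjusted p = 0.00525) and 456wt (0.10, adjusted p = 0.0272), the latter lost without 456wt replicate 1 (adjusted p = 0.102) or replicate 3 (adjusted p = 0.163). Wdr5 shares no 100-base stretch with other transcripts, and its paralog Wdr5b was at 1.21 ± 0.0977 FPKM, 1.65% of the Wdr5 level.

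Ash2l encodes a subunit that, together with RBBP5, stimulates the enzymes of these complexes. The samples 186wt, 343wt, 444wt and 456wt had 56.3, 59.7, 65.5 and 63.4 FPKM, the order of samples that Wdr5 also had, again with no overlap in the 6 pairs. Its differences were smaller than those of Wdr5 on the log2 scale, with 444wt higher by 0.13 (adjusted p = 0.00024), 186wt lower (-0.16, adjusted p = 8.23e-05) and 456wt higher by 0.07 (adjusted p = 0.0171). The call in 456wt was lost without 456wt replicate 1 (adjusted p = 0.0668) or replicate 2 (adjusted p = 0.071), and 343wt was not called (-0.04, adjusted p = 0.102). Of the 100-base windows of Ash2l, 3.49% were shared with transcripts of 209 other genes.

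Rbbp5, the third core subunit, varied little. It stood at 16.5 FPKM in 186wt, 16.3 in 343wt, 17.9 in 444wt and 17.8 in 456wt, with all libraries of the first pair (15.76 to 17.04) below all of the second (17.5 to 18.3). The calls were marginal: higher in 444wt (0.08, adjusted p = 0.0451), lost when any of 10 of the 12 libraries was left out (adjusted p up to 0.18) and under TPM rescaling (adjusted p = 0.11), and lower in 343wt (-0.09, adjusted p = 0.0278), lost without 343wt replicate 1 (adjusted p = 0.149) or 343wt replicate 3 (adjusted p = 0.105). Scaling the libraries by the median of ratios removed its F-test call as well (adjusted p = 0.634). The pseudogene Gm11977 matched the first or last 50 bases of 11.9% of the 100-base windows of Rbbp5 but was listed at 0.308 ± 0.118 FPKM.

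The core subunits were not expressed at equal levels. Ash2l exceeded Rbbp5 by a ratio of 3.58 ± 0.122 (SD, n = 4), which ranged only from 3.41 to 3.67 over the samples. For Wdr5 over Rbbp5 the ratio was 4.26 ± 0.415, from 3.79 in 186wt to 4.79 in 444wt. Summed, the 3 core subunits came to 151.5 ± 14.8 FPKM, and the pair of SET1 enzymes to 64.2 ± 7.01 FPKM.

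Men1 encodes menin, a tumour suppressor that tethers the MLL1 and MLL2 complexes to chromatin and is not a subunit of the SET1 complexes. Its level was 31.4 FPKM in 186wt, 29.0 in 343wt, 35.8 in 444wt and 37.1 in 456wt. It was the only one of the 8 with its highest mean in 456wt, although the libraries of 456wt (35.2 to 38.2) overlapped those of 444wt (35.0 to 36.6). Against the mean of the others, 456wt was higher by 0.21 (adjusted p = 0.00131), 444wt higher by 0.15 (adjusted p = 0.00956) and 343wt lower (-0.26, adjusted p = 0.000313). Sample 186wt missed the threshold (-0.11, adjusted p = 0.0572) but passed without 343wt replicate 1 (adjusted p = 0.00558) or 456wt replicate 2 (adjusted p = 0.0334), and with genes under 1 FPKM left out (adjusted p = 0.0425).

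The KDM5 demethylases Kdm5a and Kdm5b differed in how far they moved. Kdm5a was at 58.4 FPKM in 186wt, 56.9 in 343wt, 73.9 in 444wt and 61.4 in 456wt, so that the 3 libraries of 444wt (71.9 to 75.2) stood above the 9 others (53.6 to 64.1). It was higher in 444wt by 0.33 (adjusted p = 3.28e-05), the largest such difference of the 8 genes, and lower in 343wt (-0.18, adjusted p = 0.00332). In 186wt it was lower (-0.12, adjusted p = 0.0274), a call lost without 186wt replicate 1 (adjusted p = 0.0667) or 186wt replicate 3 (adjusted p = 0.121). An exonic stretch of 276 bases, 1.95% of the Kdm5a exons, is shared with Ccdc77 on the opposite strand (11.1 ± 0.672 FPKM), and no strand setting is stated for the counting.

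Kdm5b, known for its high expression in testis, was the most even of the 8 in FPKM as deposited. It was at 85.3 FPKM in 186wt, 83.5 in 343wt, 90.4 in 444wt and 83.6 in 456wt. Only 3.04% of tested genes had a smaller range between samples, though that share includes low genes. Median ranges on the log2 scale were 0.55 for all tested genes and 0.35 for genes of 5 to 100 FPKM. The share among genes of similar level was not counted. Only 444wt was called, higher by 0.10 (adjusted p = 0.000717), and without sample 444wt the F-test no longer called Kdm5b (adjusted p = 0.495) or Kdm5a (adjusted p = 0.215). Without single libraries, 343wt was also called lower in 3 fits (adjusted p = 0.0331 without 186wt replicate 1, 0.0454 without 444wt replicate 3 and 0.0471 without 456wt replicate 1), as it was with genes under 1 FPKM left out (adjusted p = 0.0432), and 456wt in 1 (adjusted p = 0.0479, without 186wt replicate 1). Kdm5b exceeded Kdm5a in every sample, by a ratio of 1.46 in 186wt, 1.47 in 343wt, 1.23 in 444wt and 1.36 in 456wt. The 6 genes of writer complexes summed to 1.68 ± 0.0556 times the 2 erasers (SD, n = 4), and the summed level of all 8 was 376.7, 371.6, 442.3 and 398.6 FPKM in the order of sample numbers.

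**Figure D2:**
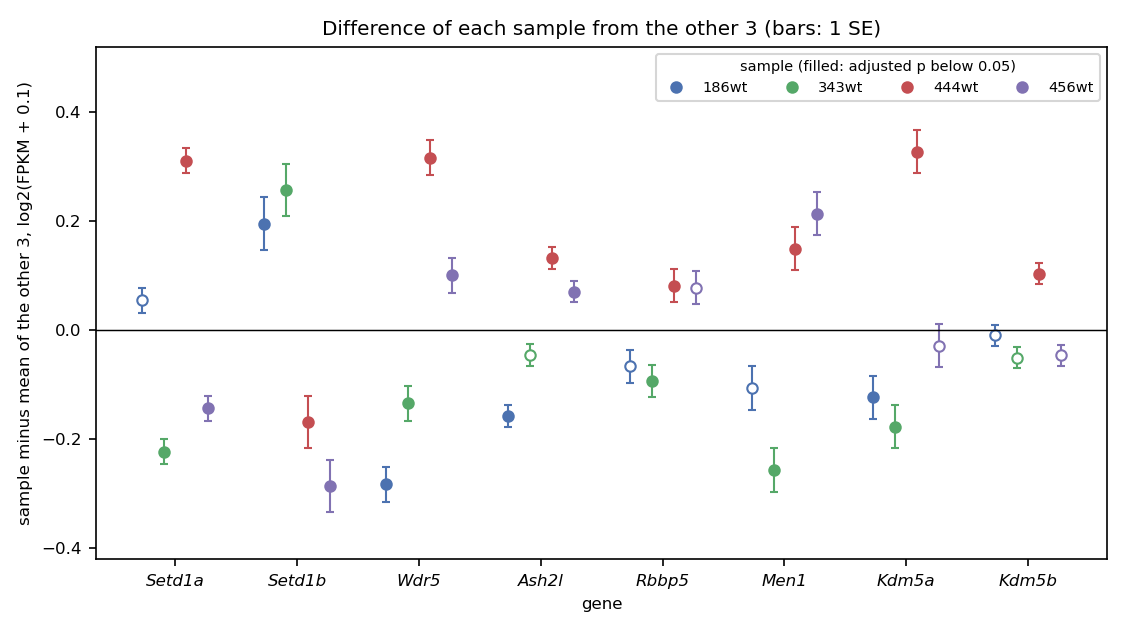
Difference of each sample from the mean of the other 3 on the log2(FPKM + 0.1) scale, for 8 genes, where error bars are 1 SE from limma and filled points have an adjusted p below 0.05. All points of 444wt lie above 0 except that of Setd1b (-0.17), and the highest is Kdm5a at 0.33.

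Sample by sample, 444wt stood out most. In it 7 of the 8 genes were higher than in the others, where 26.5% of all tested genes were higher, and 1, Setd1b, was lower, where 17.8% were. The median difference of the 8 genes was 0.14, against 0.08 for all tested genes. Under median-of-ratios scaling Rbbp5 (adjusted p = 0.732), Men1 (adjusted p = 0.123) and Kdm5b (adjusted p = 0.139) lost this call, and 5 of the 8 genes were called. Over all genes, this scaling moved the number called higher in 444wt from 5509 to 4041 and the number called lower from 3702 to 4615. That scaling also ended the calls of Kdm5a in 186wt (adjusted p = 0.137), of Wdr5 (adjusted p = 0.136) and Rbbp5 (adjusted p = 0.581) in 343wt, and of Wdr5 (adjusted p = 0.204) and Ash2l (adjusted p = 0.368) in 456wt. It added Setd1a as higher in 186wt (adjusted p = 0.00553) and Kdm5b as lower in 456wt (adjusted p = 0.00262). In 343wt, 1 gene was higher (background 14.5%) and 5 were lower (background 25.6%), with a median of -0.11 against -0.10. Sample 186wt had 1 gene higher (background 14.8%) and 3 lower (background 21.9%), and 456wt had 3 higher (background 22.9%) and 2 lower (background 13.6%). The medians there were -0.09 against -0.05, and 0.02 against 0.05. The 4 comparisons share samples, so their calls are not independent of each other. The balance of calls over all genes moved with the scaling. With FPKM as deposited, the share of called genes that were higher was 40.3% in 186wt, 36.1% in 343wt, 59.8% in 444wt and 62.8% in 456wt. After median-of-ratios scaling it was 50.8%, 51.8%, 46.7% and 51.3% in the same order.

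The samples also differed in markers of cell types. The sum of 9 spermatogonial genes was 682.1 FPKM in 186wt, 725.4 in 343wt, 993.1 in 444wt and 864.7 in 456wt, and that of the 12 early meiotic genes found of 13 was 454.8, 360.3, 584.6 and 431.4 FPKM. Of these genes, 8 of 9 and 11 of 12 were highest in 444wt. Sertoli genes ran against them, with 4030 FPKM in 186wt, 4169 in 343wt, 2331 in 444wt and 2502 in 456wt, and none of the 8 found was highest in 444wt. The 6 peritubular myoid genes summed to 670.1, 321.9, 848.2 and 1459 FPKM, and all 6 were highest in 456wt. Smaller lists also moved, with sums over 6 genes each of 16.1 to 110.5 FPKM for Leydig cells, 9.21 to 40.6 for macrophages and 16.2 to 41.9 for endothelium, and of 21.5 to 124.2 FPKM over 3 erythroid genes. The list of pachytene and later genes (82.0 to 135.6 FPKM over 6 genes) and that of round spermatids (3.27 to 5.05 FPKM over 6 genes) also differed between samples, and the protamine gene Prm2 was listed at 0 in all libraries.

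Several of the 8 genes ordered the samples as one of these lists did. Setd1a and Kdm5b had the order of the early meiotic list (444wt, 186wt, 456wt, 343wt). Wdr5 and Ash2l had that of the spermatogonial list (444wt, 456wt, 343wt, 186wt), and Men1 that of the myoid list (456wt, 444wt, 186wt, 343wt). Libraries of Kdm5b overlapped among 186wt, 343wt and 456wt, and those of Men1 between 444wt and 456wt. The order of those samples was therefore not resolved for Kdm5b and Men1. The sums of the round spermatid list also stood in the order of Wdr5 and Ash2l. They overlapped between libraries of different samples (2.48 to 3.88 FPKM in 186wt and 3.03 to 4.05 in 343wt), so that order was not resolved. Of its genes, Acrv1 (0.0733 FPKM) and Tssk6 (0.99 FPKM) were highest in 186wt, Tnp1 and Prm1 in 444wt and Spaca1 in 456wt. Setd1b was above its mean in the same 2 samples as the Sertoli list, 186wt and 343wt. With 4 samples, 80 pairs of a gene and a list were compared and 7 had the same order, so these are descriptions picked after the values were seen. The share of all genes with each order was not counted. The part of cell makeup in the differences of the 8 genes was not tested.

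**Figure D3:**
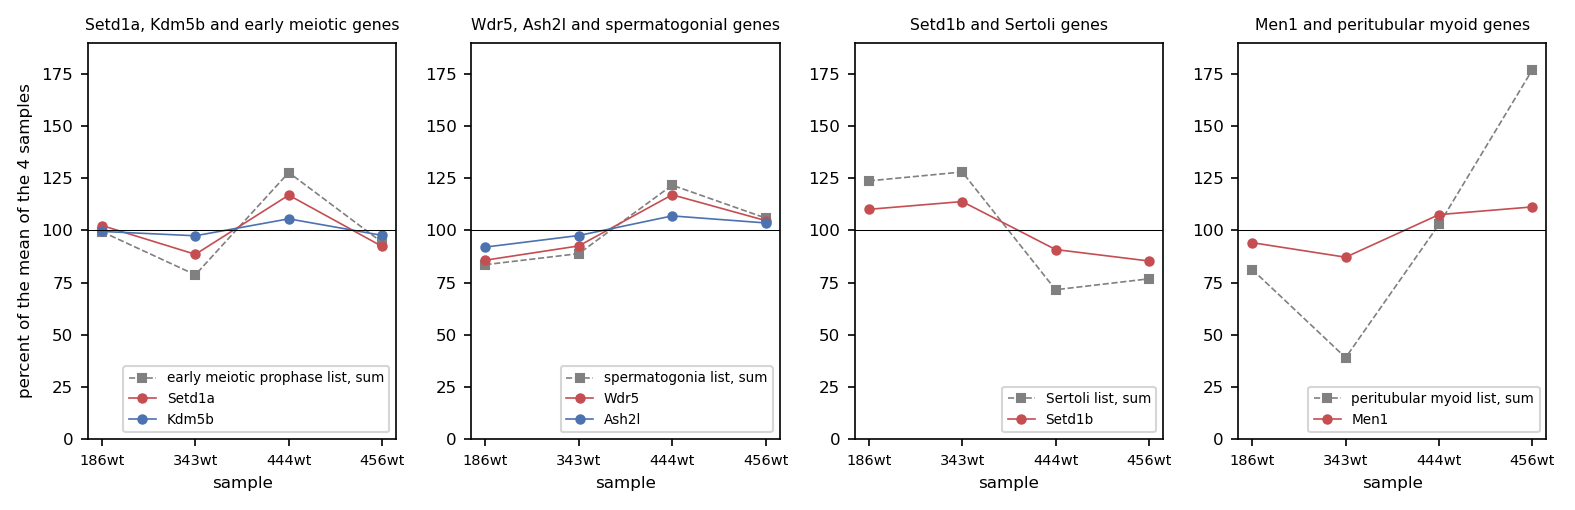
Level of selected genes (circles) and summed level of a marker list (squares) in each sample, both as percent of their mean over the 4 samples, where lines only guide the eye. Genes and lists were paired after the values were seen, and Setd1b does not share the full sample order of the Sertoli list. Means of Setd1a and Kdm5b follow the sample order of the early meiotic list, though Kdm5b libraries of 186wt, 343wt and 456wt overlap. The lists moved further than the genes (for example Sertoli sums of 2331 to 4169 FPKM against Setd1b levels of 5.80 to 7.74 FPKM).

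Against Prdm9, the meiosis-specific H3K4 methyltransferase, 7 of the 8 genes had higher levels. Prdm9 was at 13.2 FPKM in 186wt, 12.0 in 343wt, 14.9 in 444wt and 12.8 in 456wt, a mean of 13.2 ± 1.24 (SD, n = 4). The ratio of each gene to Prdm9 was highest for Kdm5b, 6.51 ± 0.364, followed by Wdr5 at 5.53 ± 0.543, Kdm5a at 4.73 ± 0.221, Ash2l at 4.65 ± 0.375 and Setd1a at 4.33 ± 0.166. Men1 stood at 2.52 ± 0.255 and Rbbp5 at 1.30 ± 0.0925 times Prdm9. Setd1b was the exception, at 0.520 ± 0.105 times Prdm9, below it in all 4 samples. These ratios are of the mixed samples and not of 1 cell type.

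A list of 34 other genes of H3K4 methylation gave the surroundings of the 8. Of the 33 that could be tested, 27 (81.8%) differed between samples by the F-test, where 58.2% of all tested genes did. That background includes low genes, and the share among genes of similar level was not counted, so no excess is read from it. By group, 10 of 12 other writers, 11 of 14 other subunits and 6 of 7 other erasers were called, and the median range over the 33 was 0.29 on the log2 scale. In 444wt, 16 of the 33 were higher (26.5% of all tested genes) and 4 lower (17.8%). In 456wt, 7 were higher (22.9%) and 12 lower (13.6%). In 343wt, 7 were higher (14.5%) and 8 lower (25.6%), and in 186wt, 6 were higher (14.8%) and 9 lower (21.9%). The most abundant were Psip1, a chromatin reader that associates with menin, at 86.9 ± 2.92 FPKM, Ogt, a glycosyltransferase found with these complexes, at 81.0 ± 11.8, and Kdm1a, a demethylase of mono- and dimethyl H3K4, at 75.2 ± 4.90 FPKM. The least abundant were Wdr5b at 1.21 ± 0.0977 FPKM and the muscle gene Smyd1 at 0.971 ± 0.256 FPKM. Kdm5d, the Y-linked member of the KDM5 family, was listed at 0 in all 12 libraries. Since 14 of 17 Y-linked protein-coding genes in the table were listed at 0 in these male cells, this value says nothing of its expression.

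Further genes of the list were chosen after their values were seen, for their place beside the 8. Among the subunits, Dpy30, the fourth core component, was at 31.0 FPKM in 186wt, 33.7 in 343wt, 40.0 in 444wt and 38.7 in 456wt (F-test adjusted p = 7.35e-05), and Cxxc1, the CpG-binding subunit of SET1 complexes, was at 56.3, 52.8, 71.7 and 62.7 FPKM (adjusted p = 6.82e-07). Both were called higher in 444wt and 456wt and lower in the others. Wdr82, which also belongs to the SET1 complexes, went the opposite way, with 54.4, 55.4, 40.7 and 46.3 FPKM (adjusted p = 9.1e-07). Of the MLL enzymes, Kmt2b, the menin-bound MLL2 enzyme (Wbp7 in the table), was at 54.8 ± 6.15 FPKM, near Setd1a, and Kmt2a at 14.3 ± 1.56 FPKM, and both were called higher in 444wt and lower in 343wt. Kmt2c and Kmt2d, the enzymes of the enhancer complexes, were at 17.3 ± 1.37 and 14.02 ± 0.892 FPKM, and both were called higher in 343wt and lower in 456wt. Kmt2c was called higher in 444wt as well, and Kmt2d was not called there. Of the KDM5 family, Kdm5c, the X-linked member, differed from Kdm5a and Kdm5b, with 29.99 FPKM in 186wt, 29.91 in 343wt, 22.1 in 444wt and 21.7 in 456wt (adjusted p = 3.69e-07). Together with Smyd2, Wdr82 and Rcor1, a partner of Kdm1a, it made up the 4 that were lower in 444wt.

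**Figure D4:**
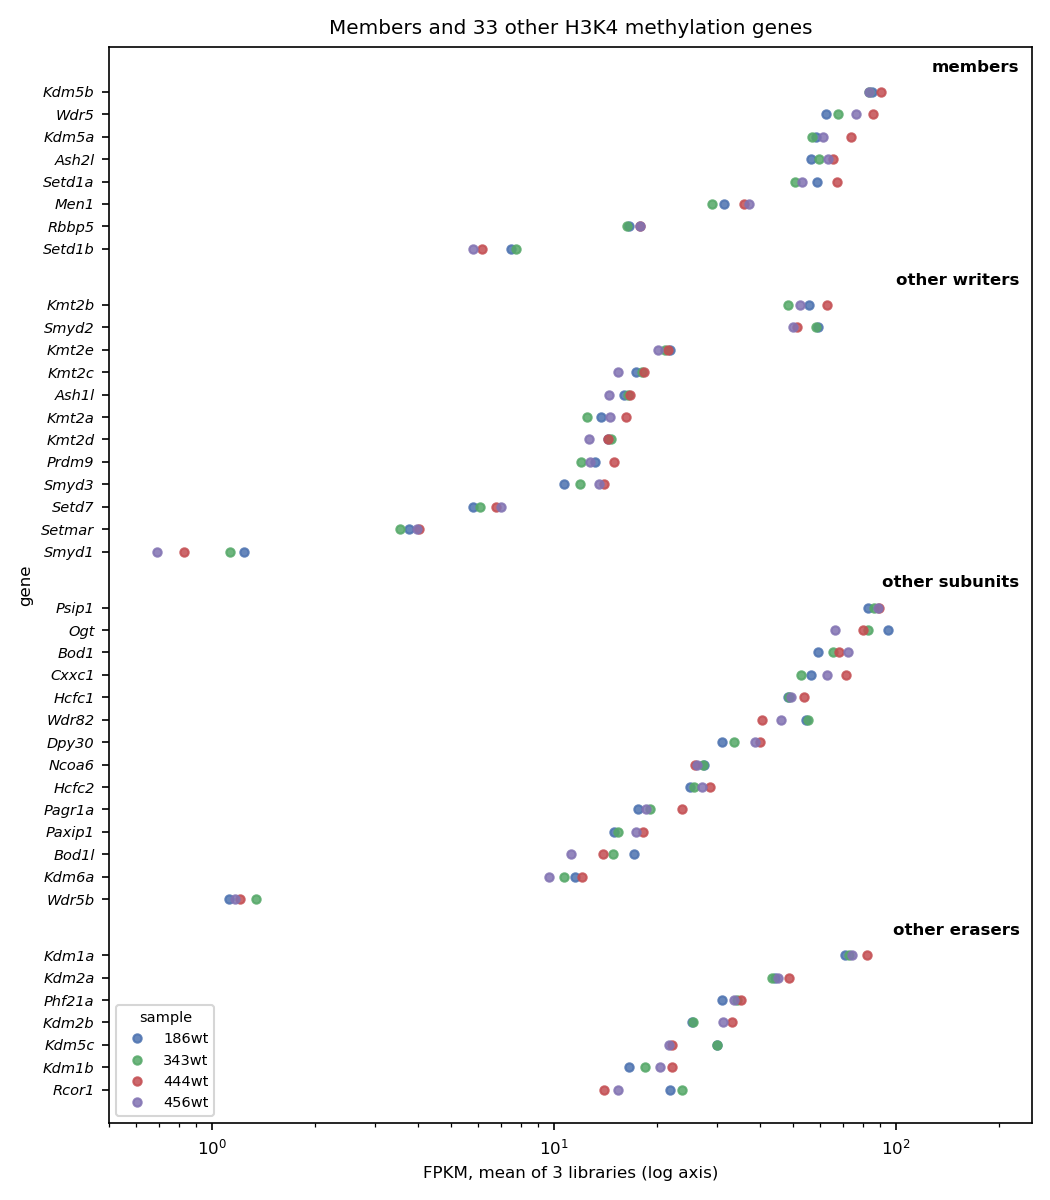
FPKM on a log axis of the 8 genes and of the 33 listed genes above 0, with 1 point for each of the 4 samples (mean of 3 libraries), grouped by role and sorted by mean. Levels run from Smyd1 (0.971 FPKM) to Psip1 (86.9 FPKM), and most rows are narrow beside the differences between genes.

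Genes most alike to each of the 8 were sought by Pearson's r of log2 values over the 12 libraries, among the 10402 genes that averaged 5 FPKM or more. These libraries come from 4 samples, so r mainly compares 4 levels, and many genes reach a high value. For Setd1a the closest were Taf15 (r = 0.983) and Ccnb3 (r = 0.978), the latter a meiotic cyclin. Setd1b was closest to Zc3h12c (r = 0.980) and Pkn2 (r = 0.978), and Wdr5 to Irf1 (r = 0.987) and Sae1 (r = 0.986). Ash2l was closest to Glis3 (r = 0.991) and Sall1 (r = 0.978), Rbbp5 to Strada (r = 0.956) and Ubfd1 (r = 0.951), and Men1 to Lbr (r = 0.972) and P4hb (r = 0.965). For Kdm5a they were Arrdc2 (r = 0.964) and Elk4 (r = 0.960), and for Kdm5b Gm1564 (r = 0.947) and Phyhipl (r = 0.928). The number of genes with r above 0.9 ran from 27 for Kdm5b to 747 for Wdr5. Among the 8 themselves, the r farthest from 0 was negative, -0.927 for Setd1b with Men1, followed by 0.924 for Wdr5 with Ash2l, 0.917 for Rbbp5 with Men1 and 0.901 for Setd1a with Kdm5b.

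The spread between libraries of a sample was close to counting error for some genes and above it for others. If each gene were its longest transcript, a library would hold about 752 fragments of Setd1b and 10031 of Kdm5a, giving counting CVs of 3.65% and 0.998%. The pooled CV of the 3 libraries was 4.46% for Setd1b and 4.27% for Kdm5a, so that the latter exceeded counting error several-fold, while for Ash2l (1.86% against 1.96%) and Rbbp5 (2.50% against 3.41%) it did not.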

How the data were processed

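RNA was measured in 12 libraries, 3 for each of 4 sample numbers. The authors aligned 100-bp reads with Bowtie 0.12.9 to the NCBI build 37 transcriptome, removed reads with several mismatches and computed the deposited FPKM values with RSEM 1.2.8 (fragment length 280 ± 50 bp). The counting strand is not given in the sources used here. Each column was matched to its sample by its name, and sample values are averages of 3 libraries.

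Tests used limma 3.58.1 in R 4.3.3 on log2(FPKM + 0.1) with a mean trend, over the 20795 genes that averaged 0.1 FPKM or more. An F-test compared the 4 samples, and contrasts set each sample against the mean of the other 3. P-values were Benjamini-Hochberg adjusted over all tested genes, with a threshold of 0.05. Fold changes on this scale slightly understate those of low genes. Percent differences between samples were converted from these log2 differences.

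FPKM carry no depth, so it was estimated from the steps of low values in transcripts of 300 to 500 bp, which covers counting error only. Shared sequence was counted over 100-base windows of each longest transcript. A window was shared when its first or its last 50 bases occurred exactly in a transcript of another gene. Of 37620 identifiers, 37205 were in GENCODE M1. Tables were handled with Python 3.11.15, pandas 2.3.3 and numpy 2.4.6.

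The 8 genes, the pathway list and the marker lists were chosen with earlier results of these data known. Named were all 8 genes, Prdm9, the 3 highest and 3 lowest genes of the pathway list and the 2 genes most alike to each of the 8. A further 10 genes of the pathway list were named after their values were seen. Library numbers were checked for pairing: of 18 pairs of same-numbered libraries, the deviations correlated by -0.065 to 0.128, and 1 pair exceeded 0.1, so the numbers were not taken as pairs. Alternatives were other pseudocounts, filters and scalings, no trend, a replicate block and fits without each library or sample. The fits without a low-value filter, a trend or a sample were counted for the F-test only.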

Additional observations from a re-analysis of the deposited data

Results flagged for a closer look

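The ratio of Men1 to the sum of Setd1a and Setd1b was 0.6306 in 456wt, against 0.4735 in 186wt, 0.496 in 343wt and 0.4891 in 444wt. Its gap to the nearest of the other samples was 0.857 of the whole range, above Dixon's 95% critical value for 4 samples. Of 15 levels and ratios examined, this 1 was marked, and chance marks about 1 in 20. In 456wt, Men1 was at its highest (37.1 FPKM) and the sum of the SET1 enzymes (58.8 FPKM) was near its lowest.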

How the results depend on the processing

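The count of the 8 genes that differed between the 4 samples by limma's F-test was 8 in all settings tried except median-of-ratios scaling, where it was 7, and the fit without sample 444wt, where it was 6. Over the fits that left out a library or a sample it ran from 6 to 8. The number of all genes called ranged from 9848, without sample 444wt, to 12146 with a pseudocount of 1, against 12107. With the library number as a replicate block, 11774 genes and 8 of the 8 differed, and the block changed 3 of the single comparisons: Setd1a in 186wt passed (adjusted p = 0.0476), and Rbbp5 was lost in 343wt (adjusted p = 0.0503) and in 444wt (adjusted p = 0.0739). Median-of-ratios scaling lowered the number of the 8 called in 444wt from 8 to 5. Over all genes, the number called higher there fell from 5509 to 4041 and the number called lower rose from 3702 to 4615. In 456wt the number called was 5 and ran from 3 (without 456wt replicate 1) to 6 over the fits without a library. With all libraries, 22.9% of all tested genes were called higher in 456wt and 13.6% lower. Rescaling each library to a sum of 1000000 (TPM) by construction raised all levels, to 119.3 for Setd1a, 14.2 for Setd1b, 151.9 for Wdr5, 127.3 for Ash2l, 35.6 for Rbbp5, 69.2 for Men1, 130.1 for Kdm5a and 178.2 for Kdm5b. Of the 32 comparisons of a gene in a sample with the others, 18 kept their call under every alternative counted and 14 lost or gained it under at least 1. Fits without a low-value filter, without a trend or without a sample were not counted for these comparisons. Under the alternatives counted, no comparison that was called in either fit changed direction. The causes of the other changes were not tested.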
